A study of Caenorhabditis elegans with 3 samples.

Results

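The genes of germ cell sex and of the switch from sperm to oocytes in Caenorhabditis elegans were read from RNA of whole larvae. The set holds 10 sequence names chosen by gene identity, not by their values: Y54E10A.4 (fog-1), Y113G7B.5 (fog-2), C03C11.2 (fog-3), C01F6.4 (fem-3), Y47D3A.6 (tra-1), C15F1.3 (tra-2), T23G11.3 (gld-1), H12I13.4 (fbf-1), F21H12.5 (fbf-2) and Y53C12B.3 (nos-3). All 10 were found among the 20392 genes measured. The single group consisted of 3 libraries of the wild-type strain N2 Bristol, with no treatment, grown at 25 °C on OP50 bacteria and collected at mid-L4, 29 h after synchronization. Ribosomal-RNA-depleted total RNA was sequenced, and the values are TPM (normalised transcript abundance), in which reads are divided by transcript length and scaled so that every library has the same sum. Read depth is not held in TPM, so the counting precision of each value is unknown and errors are the SD over the 3 libraries. With 1 group there is no contrast between conditions, and the tests available are limited to the order of genes within libraries.

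Hermaphrodite germ cells first become sperm and later oocytes, and the choice runs through a chain of inhibitions. The membrane receptor TRA-2 holds back the FEM proteins, the FEM proteins promote degradation of the zinc finger factor TRA-1, and TRA-1 represses fog-1 and fog-3, which germ cells need to become sperm. During larval spermatogenesis FOG-2 and GLD-1 repress translation of tra-2 mRNA, and later the Pumilio-type proteins FBF-1 and FBF-2 together with NOS-3 repress fem-3 mRNA, which lets oogenesis begin. Much of this control acts on translation or protein stability, which RNA abundance does not measure. The genes tra-1, tra-2 and fem-3 also act in the soma, so a whole-worm value sums both sources.

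All 10 genes were detected, meaning 1 TPM or more in all 3 libraries, beside 61.1% of all measured genes. Their means ran from 2.72 to 16.1 TPM, a 5.91-fold range. The median log2(TPM + 1) of the 10 was 3.53 ± 0.09 (SD, n = 3), against 2.13 ± 0.05 over all genes and 3.39 ± 0.02 over all detected genes. By mean TPM the 10 genes lay between the 46.1st and the 79.3rd percentile of all genes, and 3 of them (nos-3, fog-3 and gld-1) lay at or above the 75th percentile. Summed over the 10 genes, the level was 99.3, 101 and 101 TPM in replicates 1, 2 and 3. The set therefore had moderate abundance, and its total differed little between libraries. In whole animals, fewer germ cells and less RNA per germ cell cannot be told apart.

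**Figure D1:**
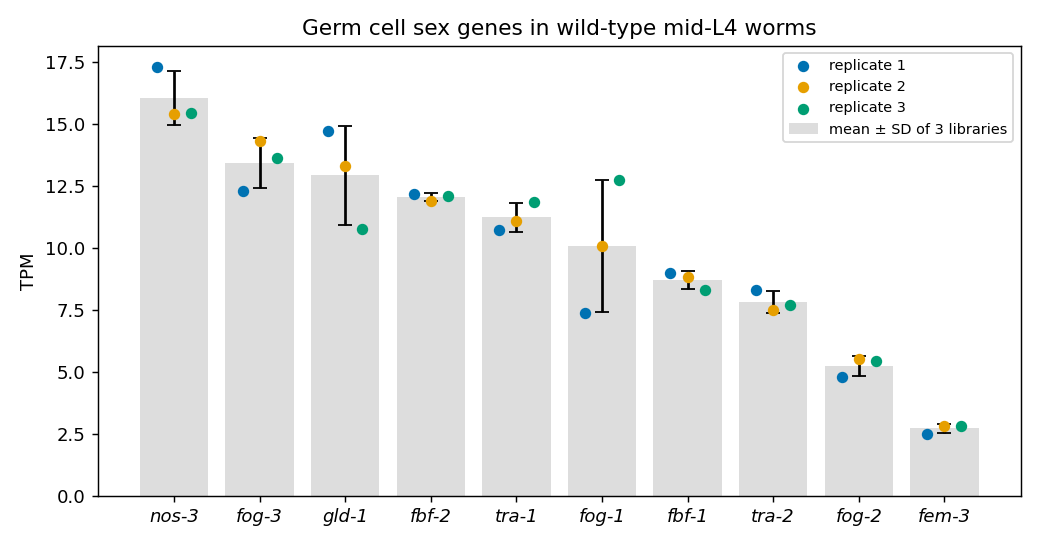
TPM of the 10 genes, ordered by mean. Grey bars and black error bars are the mean ± SD of 3 libraries and coloured points are the libraries. The gene nos-3 is highest at 16.1 TPM, fem-3 is lowest at 2.72 TPM, and the points of fog-1 and gld-1 lie farthest apart.

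Of the 2 terminal sperm-promoting genes, fog-3 was the steadier. It encodes a protein of the Tob family and stood at 12.3, 14.3 and 13.6 TPM in replicates 1, 2 and 3, a mean of 13.4 ± 1.01 TPM (SD, n = 3). The gene lies on chromosome I (10016765 to 10018121, plus strand, WBcel235) and has 1 annotated transcript of 998 nt. The gene fog-1 (chromosome I, 3211046 to 3217267, plus strand) encodes a CPEB-type RNA-binding protein that controls mRNA through its tail. Its level was 7.40, 10.1 and 12.7 TPM, a mean of 10.1 ± 2.67 TPM. Replicate 1 was lowest and replicate 3 highest, 1.72-fold apart, and fog-1 was number 8 of the set by level in replicate 1, number 6 in replicate 2 and number 3 in replicate 3. Of its 5 annotated transcripts the shortest measures 228 nt and the longest 2118 nt. Since TPM divides by length, the split of reads among such transcripts can change a gene's sum, and its part in the spread of fog-1 was not tested.

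The ratio of fog-3 to fog-1 within a library was 1.67, 1.42 and 1.07. It was above 1 in 3 of 3 libraries, with a mean log2 ratio of 0.45 ± 0.32 (SD, n = 3). In replicate 3 both genes had nearly the same level. The exact sign-flip permutation test (two-sided, n = 3) gave p = 0.25 for this ratio and for each of the other 5 ratios computed between members (Benjamini-Hochberg adjusted p = 0.25). That value is the smallest 3 libraries allow, so the test cannot decide any of them, and the ratios are given by their values and their order.

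**Figure D2:**
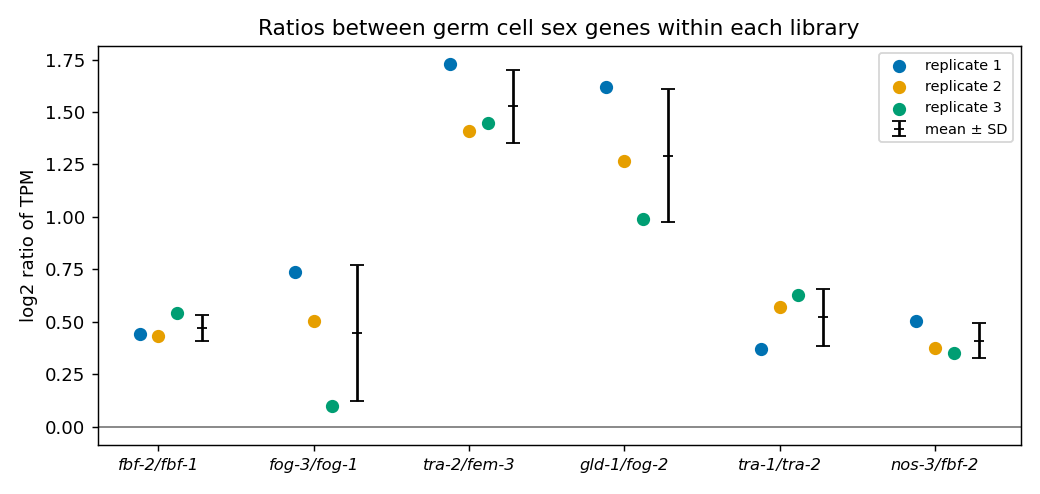
Log2 ratio of TPM between pairs of genes in each library (coloured points), with the mean ± SD of 3 libraries in black. In each pair the gene with the higher mean is the numerator, so only the sign shared by libraries within a pair is informative. All 18 points lie above 0, and the fog-3/fog-1 and gld-1/fog-2 pairs have the widest spread.

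The upstream genes tra-2, fem-3 and tra-1 kept a fixed order. The receptor gene tra-2 (chromosome II, 6955384 to 6965673, minus strand) had 8.31, 7.48 and 7.69 TPM, a mean of 7.83 ± 0.432 TPM. The gene fem-3 (chromosome IV, 9104966 to 9107607, plus strand), whose product is the FEM protein that TRA-2 binds, had 2.51, 2.82 and 2.82 TPM, a mean of 2.72 ± 0.180 TPM. It was the least abundant of the set in every library. The tra-2 level exceeded that of fem-3 by 3.31, 2.65 and 2.72 times, a mean log2 ratio of 1.53 ± 0.17. The gene tra-1 (chromosome III, 11170890 to 11195201, minus strand), the terminal regulator of the somatic pathway, had 10.7, 11.1 and 11.9 TPM, a mean of 11.2 ± 0.579 TPM. It exceeded tra-2 by 1.29, 1.48 and 1.54 times. Annotated transcripts of tra-1 run from 1289 to 4673 nt and encode products of 288 to 1110 residues, and those of tra-2 run from 1164 to 4663 nt and encode 387 to 1475 residues. The deposited values are per gene and do not separate these forms.

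The translational repressors of tra-2 had unequal levels. The gene gld-1 (chromosome I, 7695681 to 7698222, plus strand), which encodes a STAR-type RNA-binding protein of meiotic germ cells, had 14.7, 13.3 and 10.8 TPM, a mean of 12.9 ± 1.998 TPM. Replicate 1 was highest and replicate 3 lowest, the opposite of fog-1. The gene fog-2 (chromosome V, 20199254 to 20200648, plus strand), an F-box gene whose product binds GLD-1, had 4.79, 5.54 and 5.43 TPM, a mean of 5.25 ± 0.404 TPM. The level of gld-1 exceeded that of fog-2 by 3.08, 2.40 and 1.99 times (mean log2 ratio 1.29 ± 0.32). The closest relative of fog-2, ftr-1 (Y113G7B.4), lies 1012 bases away with no measured gene between, and had 5.91, 8.11 and 6.96 TPM. Reads from such close copies can be assigned to either gene, so both single values are uncertain. Summed, fog-2 and ftr-1 had 10.7, 13.6 and 12.4 TPM.

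Among the repressors of fem-3, nos-3 and fbf-2 were above fbf-1. The Nanos-type gene nos-3 (chromosome II, 9746316 to 9750462, plus strand) had 17.3, 15.4 and 15.4 TPM, a mean of 16.1 ± 1.07 TPM, and was the most abundant of the 10 genes in each library. The gene fbf-2 (chromosome II, 6088863 to 6091480, minus strand) had 12.2, 11.9 and 12.1 TPM, a mean of 12.1 ± 0.143 TPM. Its close paralog fbf-1 (chromosome II, 6078263 to 6080843, minus strand) had 8.99, 8.82 and 8.30 TPM, a mean of 8.70 ± 0.361 TPM. The fbf-2 level was 1.36, 1.35 and 1.46 times that of fbf-1, so the direction held in 3 of 3 libraries and the values of the paralogs did not overlap. The paralogs lie 8019 bases apart on the same strand, have 8 exons each and encode 632 (FBF-2) and 614 (FBF-1) residues. Because their sequences are alike, their reads may have been divided imperfectly. The sum, which does not depend on that division, was 21.2, 20.7 and 20.4 TPM, and the level of nos-3 was 1.42, 1.30 and 1.28 times that of fbf-2.

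Not every step in the order of levels exceeded the spread between libraries. Ranked by mean, the order was nos-3, fog-3, gld-1, fbf-2, tra-1, fog-1, fbf-1, tra-2, fog-2 and fem-3. Of the 9 pairs of neighbours, 5 had overlapping values: fog-3 with gld-1, gld-1 with fbf-2, tra-1 with fog-1, fog-1 with fbf-1, and fbf-1 with tra-2. The values of nos-3 and fog-3, of fbf-2 and tra-1, of tra-2 and fog-2, and of fog-2 and fem-3 did not overlap. Of all 45 pairs of the 10 genes, 37 had the same order in each library. The positions of fog-1 and gld-1 were the ones that moved most between libraries.

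Relative to genes of like abundance, most of the set varied little. The coefficient of variation (CV, the SD as a percentage of the mean) had a median of 6.66% over the 10 genes and 12.1% over all detected genes. Each gene was also ranked by CV among the 500 genes nearest to it in mean TPM. Here 8 of 10 lay below the median of their neighbours, and 6 of these lay under the 25th percentile. Neighbours were matched by mean TPM only. Transcript length, which together with TPM sets the number of reads, was not matched, and its part in the low CVs was not tested. The gene fbf-2 was the steadiest with a CV of 1.19%, above only 1% of its neighbours, whose median was 10.9%. The exceptions were fog-1, with a CV of 26.5% at the 86.2nd percentile, and gld-1, with 15.4% at the 68.2nd. No member reached a 2-fold difference between its highest and lowest library, as 15.4% of all detected genes did.

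**Figure D3:**
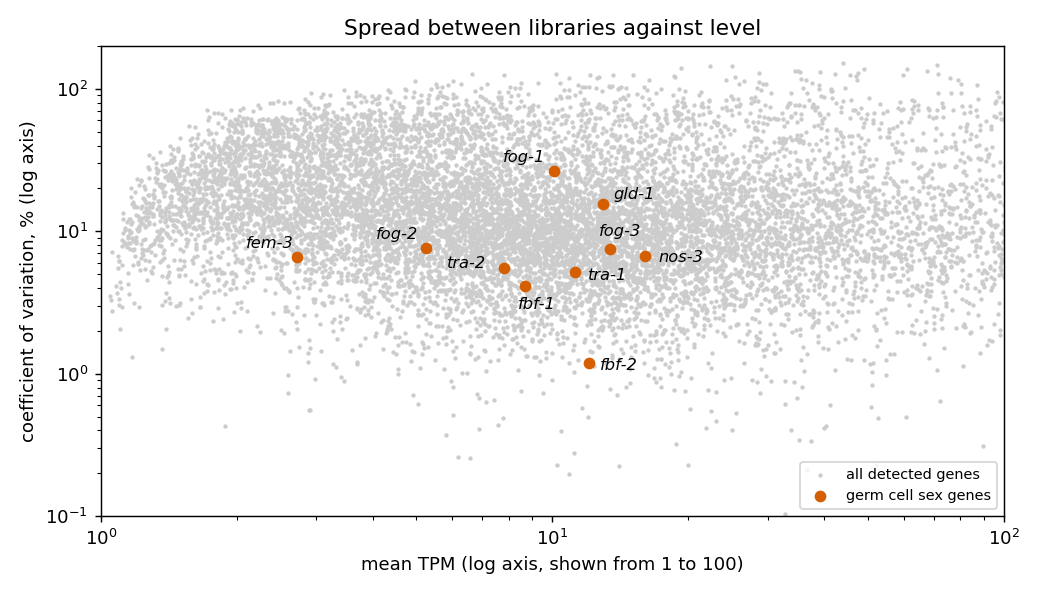
Coefficient of variation over 3 libraries against mean TPM, both on log axes, for the 10 genes (orange) and all detected genes between 1 and 100 TPM (grey). Most of the 10 lie in the lower part of the grey cloud, fbf-2 is lowest at 1.19%, and fog-1 is highest of the set at 26.5%.

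The highest value fell in replicate 1 for 5 genes (gld-1, fbf-1, fbf-2, tra-2 and nos-3), in replicate 2 for 2 (fog-2 and fog-3) and in replicate 3 for 3 (fog-1, fem-3 and tra-1). Among all detected genes these shares were 39.8%, 20.0% and 40.2%. The lowest value fell in replicate 1 for 5 genes (fog-1, fog-2, fog-3, fem-3 and tra-1), in replicate 2 for 3 and in replicate 3 for 2. Among all detected genes the shares lowest in each library were 38.3%, 25.5% and 36.3%. All 3 fog genes and fem-3, which promote sperm fate, were thus lowest in replicate 1, and their highest library was 1.13 to 1.72 times that value. However, tra-1, which acts against sperm fate, was lowest there too. In contrast, gld-1, whose product represses tra-2 mRNA together with FOG-2, was highest in replicate 1. This grouping was noticed after the values had been seen and was not tested.

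Replicate 1 was also the library richest in sperm RNA. All 13 measured genes of the sperm list were highest in replicate 1 and lowest in replicate 3, and their summed level was 915, 397 and 236 TPM. Among them, msp-58, a major sperm protein gene, had 437, 180 and 120 TPM, and the sperm phosphatase gene gsp-3 had 26.4, 13.7 and 7.60 TPM. Of the 10 detected sperm genes, 9 differed at least 2-fold between libraries: spe-11, spe-26, gsp-3, gsp-4, msp-31, msp-40, msp-58, ssp-9 and ssp-16. Their ratios of highest to lowest library ran from 2.36 (spe-26) to 4.93 (ssp-9). The spermatogenesis regulator spe-44 had 12.5, 11.5 and 7.47 TPM, and the GATA factor gene elt-1, which also acts in the epidermis, had 3.04, 1.95 and 2.69 TPM. The sum over 12 oocyte genes was 80.7, 81.7 and 80.2 TPM. Of these genes 3 were highest in replicate 1, 3 in replicate 2 and 6 in replicate 3. For example, lin-41 was lowest in replicate 1 (2.56, 3.60 and 4.06 TPM) and cbd-1 was highest there (20.7, 19.4 and 17.5 TPM). The sum over 7 germ line markers was 203, 199 and 206 TPM. The markers did not move together: 4 (such as him-3 and deps-1) were highest in replicate 1, 1 in replicate 2 and 2 (glh-1 and pgl-1) in replicate 3. The ratio of gld-1 to fog-1, chosen after seeing the values, was 1.99, 1.32 and 0.847 and so crossed 1 between libraries. These values stand beside each other in 3 libraries, which is too few for a correlation, and their relation was not tested.

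**Figure D4:**
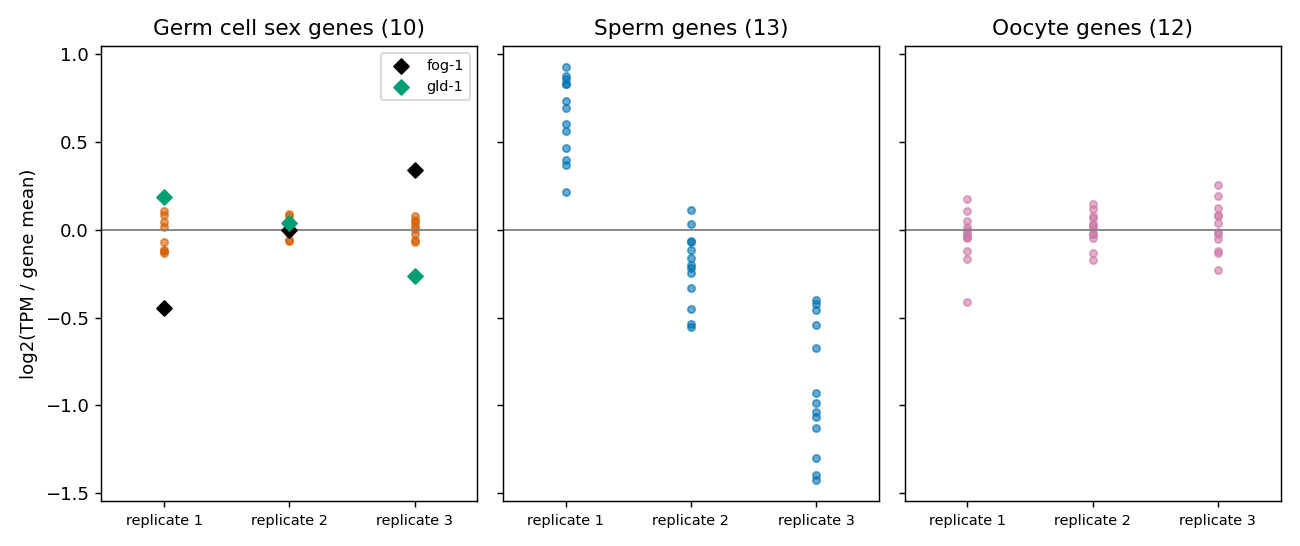
Log2 of TPM over the gene's own mean in each of 3 libraries (x axis), for the 10 germ cell sex genes, 13 sperm genes and 12 oocyte genes. Each point is a gene. The sperm genes are all above 0 in replicate 1 and below 0 in replicate 3, while in the first panel fog-1 (black) and gld-1 (green) lie apart in opposite directions.

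Partners of the 10 genes were described from lists chosen with earlier results of these data known. Over all lists 90 of 106 other genes were detected, beside 61.1% of all measured genes. The same share stands beside each list count below. In the list of X-signal and somatic sex genes 9 of 11 were detected. The highest was fem-1, an ankyrin-repeat subunit that recruits TRA-1 to degradation, at 24.5, 26.8 and 26.4 TPM. It exceeded fem-3 by 9.76, 9.52 and 9.36 times, and the phosphatase gene fem-2, at 11.2, 9.96 and 10.8 TPM, exceeded fem-3 by 4.45, 3.53 and 3.81 times. Among the 3 fem genes, fem-3 was thus the lowest in every library. The lowest gene of that list was xol-1, the male-promoting switch of the early embryo, at 0.354 ± 0.139 TPM (SD, n = 3).

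All 7 genes of the FEM ubiquitin ligase and the cofactors of TRA-2 and TRA-1 were detected. The elongin C gene elc-1 was highest at 63.2 ± 1.23 TPM. The lowest was laf-1, an RNA helicase gene that acts on tra-2 expression, at 11.1, 13.6 and 15.1 TPM. Of the 12 mog and associated genes, which repress fem-3 and act in splicing or chromatin, all were detected, from mog-7 at 8.80 ± 0.848 TPM to the exon junction gene mag-1 at 83.9 ± 1.61 TPM. All of them exceeded fem-3 at 2.72 TPM, as most genes did: fem-3 lay at the 18.8th percentile of genes averaging 1 TPM or more.

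All 23 RNA regulators and signals of germ cell fate were detected, with a median log2(TPM + 1) of 2.96 ± 0.13, from the oocyte Pumilio gene puf-5 at 1.496 ± 0.196 TPM to larp-1 at 35.4 ± 3.86 TPM. The product of larp-1 limits fem-3 in the germ line. The gene sygl-1, a Notch target that keeps germ line stem cells, had 2.26, 3.13 and 4.69 TPM, and the CPEB-type gene cpb-2 had 9.17, 6.83 and 4.54 TPM. These were the 2 genes of the list that reached a 2-fold difference between libraries, and they went in opposite directions.

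The somatic targets of TRA-1 were scarce, with 1 of 4 detected, beside 61.1% of all measured genes. The gene mab-3, a male-promoting DM domain factor that TRA-1 represses, had 3.01, 1.84 and 1.69 TPM. The others were below 1 TPM in every library, namely dmd-3 at 0.382 ± 0.347, the cell death gene egl-1 at 0.208 ± 0.187 and ceh-30 at 0.438 ± 0.0936 TPM. Of the male neuron markers 0 of 7 were detected, with summed levels of 0.408, 0.844 and 0.394 TPM, and cwp-1 and cwp-2 were listed at 0 in replicates 1 and 3. Whether the larvae included males was not tested. Of 9 measured somatic gonad markers 8 were detected, from egl-43 at 1.80 ± 0.0957 TPM to inx-8 at 11.3 ± 0.604 TPM, and lag-2, at 0.160 ± 0.0439 TPM, was not. All 7 germ line markers were detected, led by rec-8 at 62.1 ± 4.22 TPM.

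**Figure D5:**
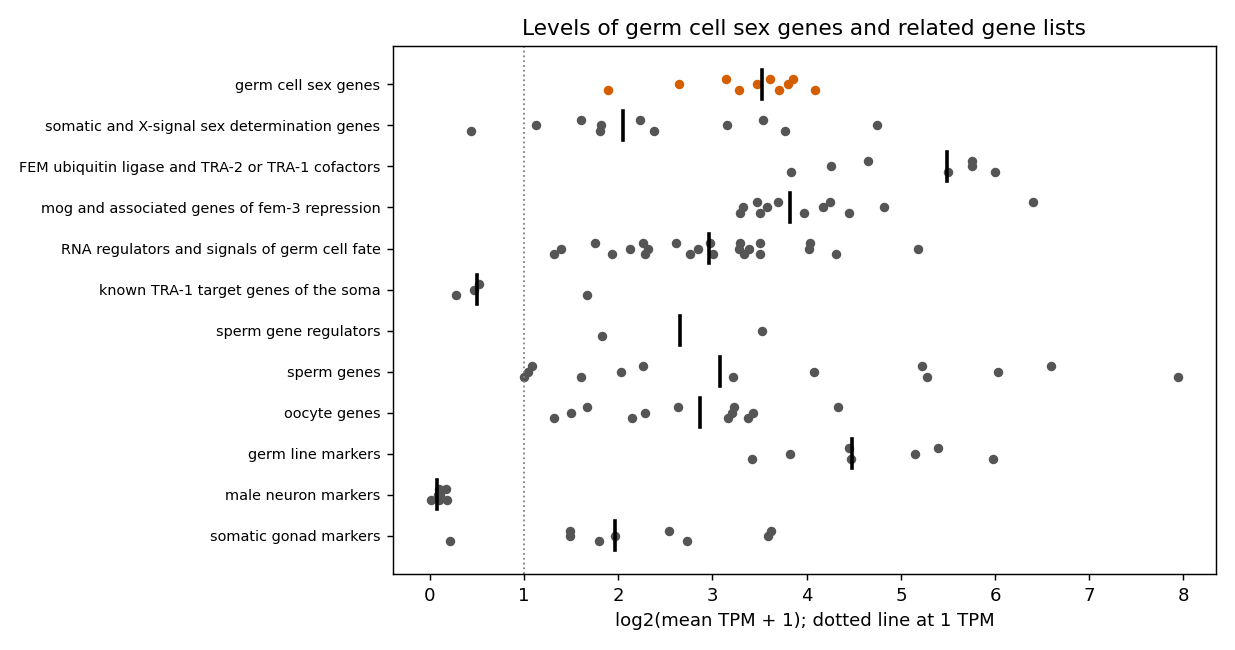
Log2(mean TPM + 1) of every measured gene (points) in the set of 10 (orange) and in 11 related lists (grey), with black bars at the list medians averaged over 3 libraries. The 10 genes lie to the right of the dotted line at 1 TPM with a median of 3.53, and the male neuron markers lie to its left.

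Likeness of pattern was measured as the Euclidean distance between deviations of log2(TPM + 1) from the gene's mean over the 3 libraries, among 115 other genes of the set and lists. Among the 3 genes closest to fog-1 were lip-1 (distance 0.09) and sygl-1 (0.11), and among the 3 closest to fog-3 were fog-2 (0.03) and rme-2 (0.04). The remaining gene in each case, dmd-3 for fog-1 and ceh-30 for fog-3, was below 1 TPM in every library, where the pseudocount of 1 shrinks any change, and its closeness cannot be read as a shared pattern. Over 3 libraries such closeness is common: of 13529 other genes averaging 1 TPM or more, 175 lay as close to fog-1 as sygl-1 did, and 157 as close to fog-3 as rme-2 did.

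The annotation gives what these genes share outside their RNA levels. Chromosome II, with 17.3% of the measured genes that have a position, carries 4 of them (tra-2, fbf-1, fbf-2 and nos-3), and chromosome I, with 14.2%, carries 3 (fog-1, fog-3 and gld-1). Chromosomes III, IV and V, with 13.2%, 16.3% and 25.3%, carry 1 each, and X, with 13.6%, carries 0. With 10 genes these counts are a description only. Several are known to be regulated through their 3′ untranslated regions (UTRs). Over the 16631 measured protein-coding genes with an annotated 3′ UTR, the median length of the longest one was 131 nt. The longest annotated 3′ UTR of each of the 10 genes exceeded that median. It was 1202 nt in tra-1 (98.7th percentile), 812 nt in gld-1 (96.5th), 597 nt in nos-3 (93.6th), 287 nt in fbf-1, 279 nt in fbf-2, 263 nt in fem-3, 246 nt in fog-1, 235 nt in tra-2, 193 nt in fog-3 and 143 nt in fog-2 (53.7th). These lengths use no TPM value. At their ends, 3 of the genes overlap a gene on the other strand: tra-2 overlaps ceh-38 by 26 bases, nos-3 overlaps Y53C12B.7 by 51 bases, and fbf-1 overlaps H12I13.6 by 15 bases. The last of these had 100, 84.3 and 58.3 TPM, far above fbf-1. The library kit keeps strand, but whether quantification used it is not given in the sources used here.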

How the data were processed

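Whole N2 larvae gave 3 libraries, made per the labels' protocols with Trizol extraction, DNase treatment, Ribo-Zero Gold depletion and the TruSeq Stranded Total RNA kit. The authors deposited TPM per gene, computed with kallisto per the submitters' processing notes, and each column summed to 1000000. The kallisto version, index, build and transcript-to-gene step are not given in the sources used here. A deposited mean TPM equalled the mean of the 3 columns to 6.67e-06 and was not used. TPM keeps no counts, so no count model, interval or depth is given.

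Sequence names were matched to Ensembl release 115 (WBcel235) and RefSeq, 20136 of 20392 matching. Means, SDs, percentiles, ratios and CVs were computed with Python 3.11.15, numpy 2.4.6 and pandas 2.3.3, and log2 values used a pseudocount of 1. The spread ranking was run on simulated data with known noise. That noise did not depend on mean TPM, so the matching of genes by level was not tested. Ratios were tested with an exact two-sided sign-flip permutation over libraries. Members, lists and tests were chosen with earlier results of these data known. The text names every member, the highest and lowest gene of most lists, genes of lists of up to 4, those with a 2-fold range, ftr-1 and the 3 closest patterns. Other genes (such as fem-2, gsp-3, lst-1 and her-1) were chosen after their values were seen. The symbols fer-14 and tdf-1 matched no measured gene. Planned motif counts in 3′ ends and promoters were not run, since no sequence was used here.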

Additional observations from a re-analysis of the deposited data

How the results depend on the processing

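The 6 ratios between members kept their direction without each replicate and with 0.1 or 1 added to TPM. This was fixed in advance, since each was above 1 in 3 of 3 libraries and an added constant cannot reverse a ratio. All 10 members stayed detected in every alternative except a limit of 5 TPM, where 8 did (not fog-2 and fem-3). A lower limit, fewer libraries or a total without the most abundant genes cannot lose a detected member. With the 5 TPM limit the detected genes of the other lists fell from 90 to 57. The number of members above the median CV of similar genes was 2, and 3 without replicate 3. Median-of-ratios rescaling changed library totals by factors of 0.999 to 1.01. Leaving the 100 most abundant genes out of the total raised each member's TPM 2.26-fold, and leaves ratios as they are. When ranked only among genes averaging 1 TPM or more, the members' percentiles were lower, from 18.8 for fem-3 to 68.8 for nos-3. List medians moved by more than their SD with a pseudocount of 0.1 in 8 of 12 lists and with 5 in 10 of 12, by construction of the scale. No paired analysis between conditions was possible because there was only 1 group, and the ratios paired genes within each library. Values under about 1 TPM cannot be judged without read depth.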

Other observations

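The gene her-1 (chromosome V, 9697015 to 9702035), which encodes the secreted ligand that inactivates TRA-2 in males, had 0.0845 TPM in replicate 1, 16.1 in replicate 2 and 21.8 in replicate 3. Replicates 2 and 3 were above every tra-2 value, and replicate 1 was close to 0. Its highest library was 257 times its lowest, the largest such ratio among 8923 genes with a mean of 5 TPM or more and no library at 0. That ratio divides by a value under 1 TPM, which cannot be judged without read depth. Genes at 0 in a library were left out of this ranking, such as nspa-2 with 0, 28.7 and 19.1 TPM in replicates 1, 2 and 3. For her-1, 2 transcripts of 756 and 1125 nt are annotated, and the gene overlaps no measured gene. The 7 male neuron markers, none of them detected, summed to 0.408, 0.844 and 0.394 TPM in the same libraries. Altogether 23 genes, her-1 included, were at 5 TPM or more in replicates 2 and 3 and under 1 TPM in replicate 1, while 11 genes had that pattern with replicate 2 low and 10 with replicate 3 low. The cause was not tested.

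Besides sygl-1, the Notch target genes lst-1 and lip-1 were lowest in replicate 1 and highest in replicate 3, as fog-1 was. The stem cell gene lst-1 had 8.86, 10.8 and 11.3 TPM, and the phosphatase gene lip-1 had 2.88, 4.11 and 4.90 TPM. The receptor gene glp-1 had 9.70, 9.34 and 9.27 TPM, and so did not share this order. Of the 23 RNA regulators and signals of germ cell fate, 13 were lowest in replicate 1 and 10 were highest in replicate 3. Among all detected genes these shares were 38.3% and 40.2%. In that list mpk-1, lag-1 and rnp-8 had the same order as fog-1, so it was not particular to the Notch target genes. The genes named here were picked after their values had been seen, and the relation was not tested.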
